A study of Mus musculus with 18 samples.

Results

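Liver RNA was described for 9 oncofetal and liver tumour-associated genes: Afp, H19, Igf2, Gpc3, Myc, Fgfr1, Cd24a, Ly6d and Cd109. They were chosen by name, with earlier results of these data known. Of the 9, 8 were matched to a row of the count table, which lists 35441 genes. H19 was not analysed here. All 8 passed the filter on low counts (more than 100 reads over the 18 livers), among 14533 genes tested. Igf2 and Cd109 passed it only through their reads in KO livers. The 18 livers came from male mice on a C57BL/6N background, 3 in each of 6 groups: wild type mice (WT), Lipa-/- mice without treatment (KO) and Lipa-/- mice given rAAV8.hAAT.LIPA (KOT), each at 12 and at 34 weeks post-injection, which the sample labels give as 3 and 8 months.

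The Lipa-/- mice, treated or not, lack a coding exon of the lysosomal acid lipase gene in every tissue, since it was removed with a Cre recombinase driven by a general CMV promoter. The vector carries the human LIPA coding sequence under the hAAT promoter, which is active in hepatocytes, and was injected into a tail vein at 10 to 12 weeks of age, so cells other than hepatocytes were not the intended source of the enzyme. By the study's methods, most KO mice of the long experiment were killed before its end on reaching endpoints set in advance, so the time of a KO mouse in the 34-weeks group can be shorter than the name says. All mice at 34 weeks share 1 study code in the labels and all mice at 12 weeks but KO mouse 5 share another, so time and study code cannot be told apart. Without KO mouse 5, the comparison of KO with WT at 12 weeks stays within 1 code and made the same number of member calls (6).

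Oncofetal genes are active in the fetal liver, are silenced around birth and can be switched on again in regenerating, injured or malignant liver. Alpha-fetoprotein (Afp) is the fetal counterpart of albumin, Igf2 is the fetal insulin-like growth factor and is transcribed from an imprinted locus together with the non-coding RNA H19, and glypican-3 (Gpc3) is a cell surface heparan sulphate proteoglycan used as a marker of hepatocellular carcinoma. Myc is a transcription factor of growth and proliferation, and Fgfr1 is a receptor of fibroblast growth factors. Cd24a, Ly6d and Cd109 encode proteins held on the cell surface by a lipid anchor. Cd24a marks cholangiocytes, hepatic progenitors and immune cells among others, Ly6d is known from lymphoid and epithelial cells, and Cd109 binds transforming growth factor-beta and is a co-receptor of its pathway.

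Murine Lipa and the human transgene were read first, as a check of the labels. Lipa measured 237 ± 32.8 CPM (counts-per-million, with library sizes scaled by TMM factors; mean ± SD, n = 3 here and below) in WT mice and 24.8 ± 8.33 CPM in KO mice at 12 weeks, and 305 ± 20.1 against 18.9 ± 0.773 CPM at 34 weeks. Human LIPA measured 1577, 907 and 2631 CPM in the 3 KOT mice at 12 weeks and 1316, 2746 and 523 CPM at 34 weeks, with the lowest level in KOT mouse 12 of the later time. No label was contradicted, although WT mouse 2 at 34 weeks held 23 reads of human LIPA. Each liver held between 17527848 and 25833134 gene-assigned reads, TMM factors ranged from 0.587 to 1.69, and 3 reads, the floor used here, were worth 0.0946 to 0.291 CPM.

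Untreated Lipa-/- livers held more RNA of most of the 8 genes than WT livers. At 12 weeks 6 of the 8 were called higher in KO (Afp, Gpc3, Fgfr1, Cd24a, Ly6d and Cd109), and at 34 weeks all 8 were, with Igf2 and Myc added. Igf2 and Cd109 passed the filter on low counts only through KO livers, so their calls are not separate support. A gene was called at an adjusted p under 0.05 by edgeR's quasi-likelihood test together with an absolute log2 fold change over 1. Of all genes tested, 20.2% were called higher in KO at 12 weeks and 9.06% lower, and 20.5% were called higher and 15.7% lower at 34 weeks. Because the members were chosen with earlier results known, their excess over these shares is a description and not independent support. The median log2 fold change over the 8 genes was 2.77 at 12 weeks and 3.79 at 34 weeks, or 1.69 and 3.67 without Cd109, whose fold rests on WT groups at or near 0 reads. The median over all genes tested was 0.02 and -0.03. In bulk liver, more cells of a type and more RNA per cell cannot be told apart.

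In treated mice 2 of the 8 genes were called different from WT at 12 weeks, Afp higher and Myc lower, when 25.5% of all genes were called. At 34 weeks 1 of the 8 was called, Fgfr1, when 0.22% of all genes were. In KOT livers at 12 weeks 3 of 5 macrophage markers were also called higher than in WT (summed level 288 to 436 against 70.0 to 156 CPM), as were 2 of 6 stellate cell and myofibroblast markers (83.5 to 359.6 against 28.5 to 49.6 CPM) and 2 of 5 proliferation markers (10.3 to 15.5 against 2.82 to 3.72 CPM). For B cells 2 of 5 markers, for T cells 2 of 4, for neutrophils 1 of 6 and for endothelial cells 1 of 5 were higher, and 1 endothelial and 1 hepatocyte marker were lower. The part of these cells in the members' values was not tested. Against KO mice of the same time, 6 of the 8 genes were lower in KOT at 12 weeks (all but Afp and Igf2; 25.3% of all genes) and 7 were lower at 34 weeks (all but Ly6d; 18.6% of all genes). These comparisons share their WT or KO groups, so they are not separate evidence.

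**Figure D1:**
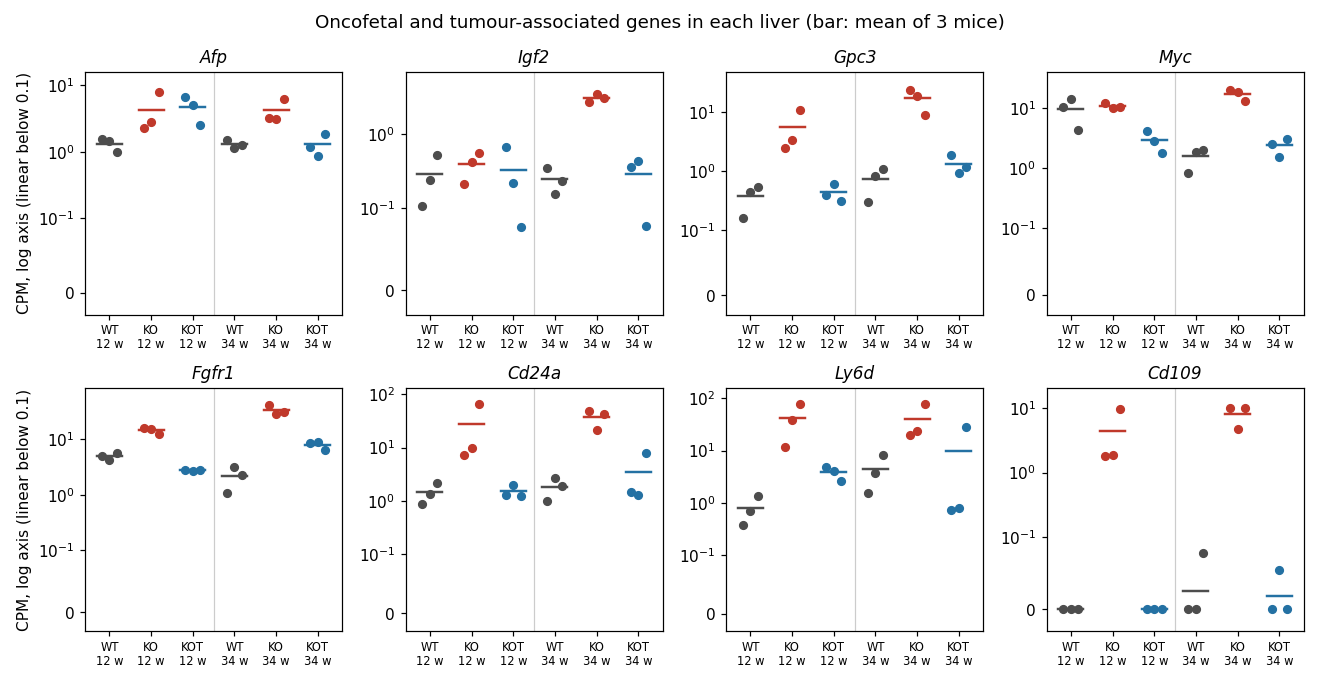
CPM of the 8 measured genes in each of the 18 livers (points, one per mouse) with the mean of the 3 mice of a group (short horizontal lines), on a logarithmic axis that is linear below 0.1 CPM; WT grey, KO red, KOT blue, 12 weeks left and 34 weeks right of the line. KO livers are the highest group at 34 weeks for every gene, Igf2 stands apart from the other groups in KO livers at 34 weeks, and Cd109 is at or near 0 outside KO livers.

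Afp lies on chromosome 5 of GRCm39 (90638584 to 90656766, plus strand) beside the albumin gene, with 15 exons in its canonical transcript. Its promoter is shown because Afp was the one member called higher in both KO and KOT livers at 12 weeks, and that of Gpc3 because Gpc3 is the member of the fetal group that rose most. Both are the 250 bases before the start in the RefSeq table of GRCm38.p6, where Afp is at chr5:90490464-90490713 on the plus strand and Gpc3 at chrX:52613975-52614224 on the minus strand, both printed 5′ to 3′ along the gene. Capitals mark the motifs found, on either strand, among the TATA box (TATAAA), the HNF1 half-site (GTTAAT), the CCAAT box (CCAAT, or ATTGG on the other strand), the E-box bound by MYC (CACGTG) and the GC box (GGGCGG, or CCGCCC on the other strand). No motif found here overlaps another.
Afp: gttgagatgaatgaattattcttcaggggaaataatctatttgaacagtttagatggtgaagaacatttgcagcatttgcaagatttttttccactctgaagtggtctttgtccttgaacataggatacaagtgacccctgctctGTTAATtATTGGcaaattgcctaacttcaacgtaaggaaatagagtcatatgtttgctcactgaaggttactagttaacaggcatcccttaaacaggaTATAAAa
Gpc3: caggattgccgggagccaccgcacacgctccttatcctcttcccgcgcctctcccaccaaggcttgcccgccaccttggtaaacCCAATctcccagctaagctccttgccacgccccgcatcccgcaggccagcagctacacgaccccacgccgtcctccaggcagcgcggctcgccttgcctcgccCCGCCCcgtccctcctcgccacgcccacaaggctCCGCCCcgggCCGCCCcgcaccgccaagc
The Afp window has a GC content of 36% and 1 CpG, and holds a TATA box that starts 7 bases before the start, an HNF1 half-site at 105 bases and a CCAAT box at 98 bases. The Gpc3 window has a GC content of 71.6% and 25 CpGs, and holds a CCAAT box at 166 bases and GC boxes at 63, 29 and 19 bases. The 2 windows thus share a CCAAT box and lie on opposite sides of the median of 52.4% GC and 6 CpGs over 32851 promoters of the table. Of these promoters 12.4% hold the TATA box, 6.43% the HNF1 half-site, 33.8% the CCAAT box, 6.02% the E-box and 32.7% the GC box. Igf2 has 4 starts in the table, with GC contents of 50.8%, 47.6%, 68.8% and 66%, so its windows span both kinds. A match of letters, and its distance to the start given in the RefSeq table, describe the reference. Neither the motifs nor the starts in use were measured in these mice.

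Afp measured 1.55, 1.44 and 0.995 CPM in the 3 WT livers at 12 weeks, 2.24, 2.76 and 7.88 CPM in KO livers and 6.51, 5.00 and 2.53 CPM in KOT livers. At 34 weeks it measured 1.47, 1.14 and 1.25 CPM in WT, 3.25, 3.13 and 6.21 CPM in KO and 1.18, 0.874 and 1.83 CPM in KOT livers. Every KO liver was above every WT liver of its time. In CPM, KOT livers lay above WT and within the KO range at 12 weeks but overlapped WT at 34 weeks. These levels rest on 16 to 195 reads per liver. The place of KOT at 12 weeks depends on the scale. In deposited length-scaled values (TPM) Afp was 2.26, 2.33 and 1.27 in KOT, 2.63, 2.13 and 5.93 in KO and 1.12, 1.11 and 0.964 in WT. Over the settings the log2 difference of KOT from WT was as low as 0.50. Afp was higher in KO by 3.22-fold at 12 weeks (log2 fold change 1.69, SE 0.48, adjusted p = 0.0108, edgeR) and by 3.26-fold at 34 weeks (1.71, SE 0.48, adjusted p = 0.00785). In KOT it was 3.50-fold higher than in WT at 12 weeks (1.81, SE 0.49, adjusted p = 0.0119) and 3.21-fold lower than in KO at 34 weeks (-1.68, SE 0.48, adjusted p = 0.00973). It was also lower at 34 than at 12 weeks within KOT mice (-1.83, SE 0.49, adjusted p = 0.00691), a comparison in which 32% of all genes were called. Time and study code cannot be told apart there.

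Several calls of Afp depended on single mice or on transcript length. Without KO mouse 9 the difference of KO from WT at 12 weeks was 0.91 (adjusted p = 0.116, edgeR), and without KOT mouse 10 or WT mouse 3 that of KOT from WT was 1.43 or 1.64 (adjusted p = 0.0675 and 0.0606). The deposited mean length of the Afp transcripts counted was 1435 to 1808 bases in KO livers and 808 to 1174 bases in WT livers at 34 weeks, and with lengths as offsets the difference at 34 weeks was 0.99 (adjusted p = 0.0652). Against KO, the lower level in KOT at 34 weeks was -0.98 with those offsets (adjusted p = 0.0745) and -1.29 without KO mouse 6 (adjusted p = 0.0558).

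Called neighbours and regulators of Afp were lower. Of 9 genes, the albumin cluster with the factors that control it, 4 were lower in KO than in WT at 12 weeks and 5 at 34 weeks, with list medians of -1.01 and -1.03 against 0.02 and -0.03 over all genes. For this and the later lists, the shares of all genes called in KO against WT were 20.2% higher and 9.06% lower at 12 weeks. At 34 weeks they were 20.5% and 15.7%. Afm, the afamin gene next to Afp, fell from 242 ± 20.4 to 67.2 ± 9.83 CPM at 12 weeks and from 201 ± 36.0 to 25.5 ± 11.8 CPM at 34 weeks (log2 fold change -1.85 and -2.98), and was back at 178 ± 30.0 CPM in KOT at 34 weeks. Foxa1, a pioneer factor of liver enhancers, fell by 1.75 on the log2 scale at 12 weeks and by 1.03 at 34 weeks, and its relative Foxa2 fell by 1.37 and 1.48. Albumin itself (Alb) was called lower at 34 weeks (-1.10, adjusted p = 0.0447, edgeR) and not at 12 weeks (-0.78, adjusted p = 0.162), although every KO liver was below every WT liver at both times. In KOT at 12 weeks, where Afp was called higher, Foxa1 (-1.66) and Foxa2 (-1.55) were lower than in WT, while Afm (0.10) and Alb (0.01) were not called.

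Igf2 lies on chromosome 7 of GRCm39 (142204503 to 142220694, minus strand), in 4 canonical exons. A protein-coding gene on the same strand (Gm49394) and an antisense RNA (Igf2os) overlap it, so reads shared with them cannot be assigned with certainty. At 34 weeks the KO livers held 88, 91 and 86 reads of Igf2, that is 2.77, 3.52 and 3.16 CPM, against 0.354, 0.158 and 0.234 CPM in WT and 0.366, 0.437 and 0.0778 CPM in KOT. The 3 KO livers lay close together and far above all other livers. Igf2 was 12.7-fold higher than in WT (3.67, SE 0.68, adjusted p = 2.97e-04, edgeR) and 10.8-fold lower in KOT than in KO (-3.43, SE 0.66, adjusted p = 5.62e-04).

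At 12 weeks Igf2 was near the floor in every group, with 0.107, 0.239 and 0.523 CPM in WT, 0.213, 0.427 and 0.566 CPM in KO and 0.680, 0.217 and 0.0767 CPM in KOT. The 3 groups overlapped, and the difference of KO from WT was 0.46 (SE 0.69, adjusted p = 0.638, edgeR). Within KO mice Igf2 was higher at 34 than at 12 weeks by 7.79-fold (2.96, SE 0.64, adjusted p = 0.0479), the only member called in that comparison, in which 0.495% of all genes were called. This call was lost (0 members called) without KO mouse 5 or 8 of 12 weeks or KO mouse 4 or 5 of 34 weeks. Whether this change differed from that in WT mice was tested by the interaction, at 3.22 (SE 0.97, adjusted p = 0.248).

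Called partners of Igf2 went in both directions, as did all genes. Among 14 genes of the insulin-like growth factor axis, 2 were higher and 3 lower in KO at 12 weeks, and 7 were higher and 2 lower at 34 weeks (list medians 0.11 and 1.03). The shares over all genes were 20.2% higher and 9.06% lower at 12 weeks, and 20.5% and 15.7% at 34 weeks. Whether the list differs from all genes was not tested. Igf1r, the receptor through which Igf2 signals, measured 0.943 ± 0.593 CPM in WT and 4.59 ± 2.29 CPM in KO at 12 weeks, and 1.27 ± 0.384 against 8.79 ± 3.49 CPM at 34 weeks. Among the binding proteins, Igfbp7 was called at both times (312 ± 138 against 65.1 ± 18.1 CPM, and 390 ± 20.2 against 73.8 ± 3.48 CPM). Igfbp1, a fasting-responsive hepatocyte gene, was called at 34 weeks only, at 659 ± 465 against 33.5 ± 1.63 CPM, and at 12 weeks ranged from 49.9 to 729 CPM within WT alone. Igfbp6 was called at 34 weeks, at 6.97 ± 1.91 against 1.10 ± 0.353 CPM.

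Other fetal genes were counted beside the members. Of 16 genes on a list of imprinted and fetal growth genes, 7 were tested, and 5 were higher in KO at 12 weeks and 6 at 34 weeks, with list medians of 2.33 and 2.42. Cdkn1c, an imprinted inhibitor of cyclin-dependent kinases that slows growth, rose from 1.54 ± 0.702 to 35.2 ± 7.59 CPM at 12 weeks and from 2.29 ± 0.250 to 25.0 ± 1.87 CPM at 34 weeks. Igf2bp2, a fetal RNA-binding protein of Igf2 mRNA, rose from 0.428 ± 0.461 to 2.39 ± 0.416 CPM and from 1.18 ± 0.632 to 4.83 ± 1.04 CPM. Peg3 was called at both times (log2 fold change 1.34 and 2.42), and Grb10 at 34 weeks only (0.79, adjusted p = 0.176, and 3.02, adjusted p = 7.11e-05, edgeR). Of the 7, Cdkn1c alone was called in KOT against WT at 12 weeks, at 7.75 ± 3.69 CPM.

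Gpc3, on the X chromosome (51361303 to 51703137 of GRCm39, minus strand, 8 exons), measured 0.161, 0.431 and 0.523 CPM in WT, 2.41, 3.34 and 10.7 CPM in KO and 0.389, 0.598 and 0.307 CPM in KOT livers at 12 weeks. At 34 weeks it measured 0.295, 0.828 and 1.09 CPM in WT, 23.8, 18.4 and 8.67 CPM in KO and 1.83, 0.929 and 1.17 CPM in KOT. All 6 KO livers were above all 12 other livers, and WT and KOT livers overlapped at both times. Gpc3 was 14.4-fold higher in KO at 12 weeks (3.85, SE 0.64, adjusted p = 1.69e-04, edgeR) and 22.2-fold higher at 34 weeks (4.47, SE 0.61, adjusted p = 1.82e-05). In KOT it was 12.2-fold lower than in KO at 12 weeks (-3.60, SE 0.65) and 12.8-fold lower at 34 weeks (-3.68, SE 0.58). Without KO mouse 9 the difference from WT at 12 weeks was 2.92 and that of KOT from KO was -2.68, both still called.

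Among 8 tested glypicans and syndecans other than Gpc3, 3 were higher in KO at 12 weeks, and 2 were higher and 1 lower at 34 weeks, with list medians of -0.07 and -0.32. Sdc3, a syndecan, was higher at both times (log2 fold change 2.38 and 1.88), with 131 ± 31.1 against 35.6 ± 15.4 CPM at 34 weeks. Gpc1 was lower at 34 weeks (-1.70, adjusted p = 4.10e-04, edgeR), at 12.0 ± 1.24 CPM against 38.8 ± 13.6 CPM in WT.

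**Figure D2:**
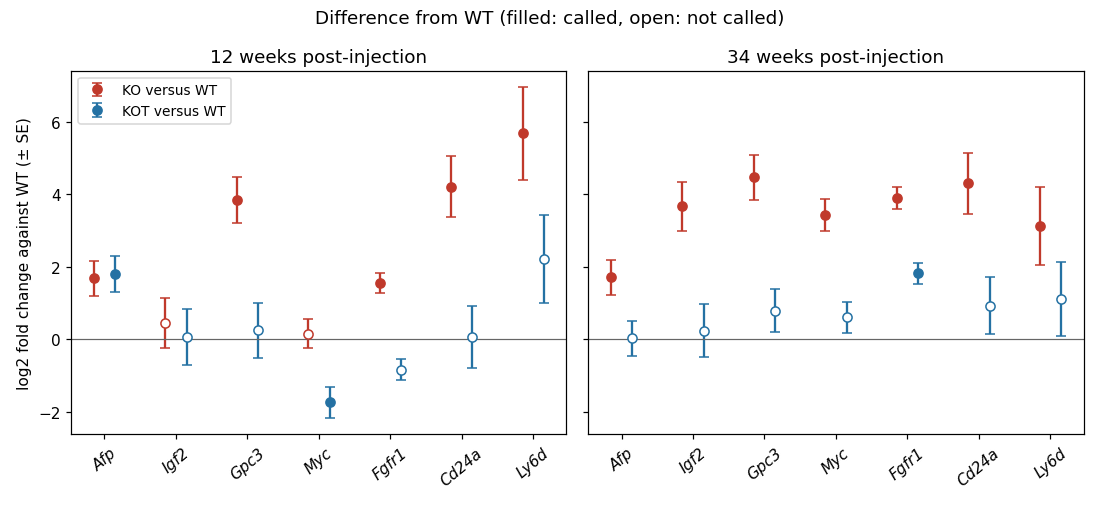
Log2 fold change against WT of the same time, with its standard error from edgeR, for 7 members (x axis) in KO (red) and KOT (blue) mice; filled points were called and open points were not. Cd109 is left out because its WT groups are at or near 0 reads. All 7 red points are filled at 34 weeks, and Fgfr1 is the only filled blue point there.

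Myc, on chromosome 15 of GRCm39 (61857227 to 61862223, plus strand, 3 exons), was the only member called between the time points in WT mice. WT livers held 10.7, 14.2 and 4.40 CPM at 12 weeks and 0.826, 1.85 and 2.02 CPM at 34 weeks. KO livers held 12.0, 9.90 and 10.6 CPM, then 20.1, 18.8 and 13.1 CPM, and KOT livers 4.18, 2.83 and 1.76 CPM, then 2.56, 1.53 and 3.11 CPM. WT and KO livers overlapped at 12 weeks and lay far apart at 34 weeks, while KOT livers were below all WT livers at 12 weeks and overlapped them at 34 weeks.

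At 12 weeks Myc differed between KO and WT by 0.15 (SE 0.39, adjusted p = 0.791, edgeR), and at 34 weeks it was 10.9-fold higher in KO (3.44, SE 0.44, adjusted p = 9.53e-06). In KOT it was 3.36-fold lower than in WT at 12 weeks (-1.75, SE 0.42, adjusted p = 0.0078), 3.73-fold lower than in KO at that time (-1.90, SE 0.42) and 7.16-fold lower than in KO at 34 weeks (-2.84, SE 0.43). Within WT mice Myc was 6.11-fold lower at 34 than at 12 weeks (-2.61, SE 0.43, adjusted p = 0.0151), against 0.323% of all genes called in that comparison. Without WT mouse 1 or 2 of 12 weeks or WT mouse 2 or 3 of 34 weeks this call was lost (0 members called). Within KO mice the later livers were all above the earlier ones, by 0.68 (SE 0.39, adjusted p = 0.417), which was not called. The interaction, which tests whether the difference of KO from WT itself changed between the times, was 3.29 (SE 0.58, adjusted p = 0.0495).

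Fgfr1, on chromosome 8 (26003670 to 26066824 of GRCm39, plus strand, 18 exons), differed between nearly all groups. It measured 5.04, 4.21 and 5.60 CPM in WT, 15.9, 15.3 and 12.4 CPM in KO and 2.82, 2.72 and 2.76 CPM in KOT livers at 12 weeks. At 34 weeks it measured 1.06, 3.19 and 2.30 CPM in WT, 40.8, 27.7 and 30.8 CPM in KO and 8.33, 8.85 and 6.46 CPM in KOT. From lowest to highest mean the groups ran WT at 34 weeks, KOT at 12, WT at 12, KOT at 34, KO at 12 and KO at 34 weeks, and of neighbours in that order only WT at 34 and KOT at 12 weeks overlapped.

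Fgfr1 was 2.93-fold higher in KO at 12 weeks (1.55, SE 0.28, adjusted p = 3.60e-04, edgeR) and 14.9-fold higher at 34 weeks (3.90, SE 0.31, adjusted p = 1.24e-07). The interaction was 2.35 (SE 0.40, adjusted p = 0.036). Myc and Fgfr1 were thus 2 of the 9 genes, 0.0619% of those tested, that were called in this interaction. These calls depend on single mice: without any 1 of the 12 KO and WT mice except KO mouse 6 of 34 weeks, 0 or 1 of the members was called. In KOT mice Fgfr1 was below WT at 12 weeks (-0.84, SE 0.30, adjusted p = 0.0359), short of the fold threshold, and above WT at 34 weeks (1.83, SE 0.29, adjusted p = 0.0114). The latter call was lost in a fit of the 2 groups alone (1.83, adjusted p = 0.517) and without WT mouse 3 (1.85, adjusted p = 0.0919).

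Fgfr1 was 2.85-fold higher at 34 than at 12 weeks in KOT mice (1.51, SE 0.29, adjusted p = 0.00173, edgeR), which with Afp made 2 members among the 32% of all genes called in that comparison. For the difference of KOT from WT the interaction was 2.67 for Fgfr1 (SE 0.41, adjusted p = 0.0166) and 2.35 for Myc (SE 0.60, adjusted p = 0.0255), 2 members called against 18.4% of all genes. Without WT mouse 3 of 12 weeks or KOT mouse 9 of 34 weeks 0 members were called, and without WT mouse 1 of either time 1 was. Against KO mice, Fgfr1 in KOT was 5.24-fold lower at 12 weeks (-2.39, SE 0.30) and 4.20-fold lower at 34 weeks (-2.07, SE 0.28).

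**Figure D3:**
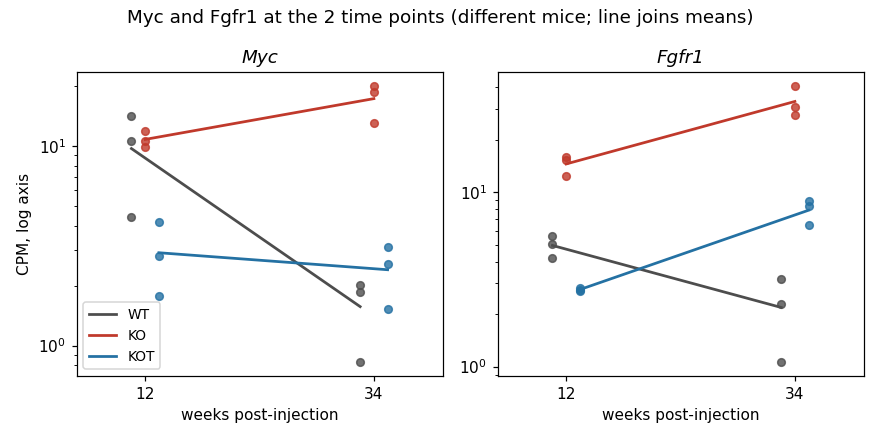
CPM of Myc and Fgfr1 (logarithmic axis) at 12 and 34 weeks post-injection in WT (grey), KO (red) and KOT (blue) mice; points are single mice and lines join the means of different mice. WT means go from 9.74 to 1.57 CPM for Myc and from 4.95 to 2.18 CPM for Fgfr1, while KO means go from 10.8 to 17.4 and from 14.5 to 33.1 CPM.

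Of 10 genes of the MYC network 3 were higher in KO at 12 weeks, and 3 were higher and 2 lower at 34 weeks. Those higher at 12 weeks were Mxd1, Mxd3 and Mnt, which compete with MYC for its partner MAX and repress transcription (log2 fold change 1.23, 3.65 and 1.55). Mycl, a MYC relative, was lower at 34 weeks (-1.19). In KOT at 12 weeks, where Myc was lower than in WT, Mxd1 (-1.13) and Mnt (-1.47) were lower too. Of 17 MYC target genes 1 was higher and 2 were lower at each time, with list medians of 0.05 and 0.35. The target counts are near or below the shares of all genes (20.2% higher and 9.06% lower at 12 weeks, 20.5% and 15.7% at 34 weeks). The network counts are above these shares for genes higher at both times and for genes lower at 34 weeks. Whether either list differs from all genes was not tested. The mitochondrial chaperone gene Hspd1 was lower at both times (-1.35 and -1.43) and Ldha, of lactate dehydrogenase, at 34 weeks (-1.32), while Cdk4 was higher at 12 weeks (1.08) and Ccnd2, a D-type cyclin, at 34 weeks (1.31).

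Of 17 tested genes of the pathway of Fgfr1, 2 were higher and 3 lower in KO at 12 weeks, and 4 were higher and 3 lower at 34 weeks, with list medians of -0.15 and -0.06. Over all genes the shares were 20.2% higher and 9.06% lower at 12 weeks, and 20.5% and 15.7% at 34 weeks. Whether this list differs from all genes was not tested. The ligand gene Fgf1 fell from 74.0 ± 13.8 to 19.9 ± 8.47 CPM at 12 weeks and from 60.2 ± 3.21 to 12.4 ± 1.53 CPM at 34 weeks, and measured 55.9 ± 18.9 CPM in KOT at 34 weeks. Klb, the co-receptor of endocrine FGFs, was lower in KO at 34 weeks (-1.57, adjusted p = 0.0125, edgeR). Of the feedback inhibitors, Spry4 was lower at 12 weeks (-1.92) and Spry2 higher at 34 weeks (1.85).

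Cd24a, on chromosome 10 of GRCm39 (43454280 to 43460264, plus strand, 2 exons, overlapped on the other strand by Mtres1), measured 0.857, 1.34 and 2.20 CPM in WT, 7.13, 9.90 and 65.3 CPM in KO and 1.26, 2.01 and 1.23 CPM in KOT livers at 12 weeks. At 34 weeks it measured 1.00, 2.64 and 1.87 CPM in WT, 48.4, 21.1 and 41.8 CPM in KO and 1.46, 1.31 and 7.74 CPM in KOT. KO livers were above WT and KOT livers of their time, KO mouse 9 stood apart at 12 weeks, and KOT mouse 12 at 34 weeks was above all WT livers. Cd24a was 18.6-fold higher in KO at 12 weeks (4.22, SE 0.85, adjusted p = 8.59e-04, edgeR) and 19.8-fold higher at 34 weeks (4.31, SE 0.84, adjusted p = 4.65e-04). In KOT it was 17.9-fold and 10.5-fold lower than in KO (-4.16, SE 0.86, and -3.39, SE 0.79). Without KO mouse 9 the difference from WT at 12 weeks was 2.53 and that of KOT from KO was -2.47, and without KOT mouse 12 the latter was -4.76 at 34 weeks, all still called.

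Ly6d, on chromosome 15 (74633902 to 74635597 of GRCm39, minus strand, 3 exons), had the largest standard errors of the members with reads in every group. It measured 0.375, 0.718 and 1.36 CPM in WT, 11.7, 37.7 and 77.9 CPM in KO and 4.76, 4.08 and 2.68 CPM in KOT livers at 12 weeks, and 1.53, 3.78 and 8.21 CPM in WT, 20.1, 23.4 and 76.7 CPM in KO and 0.732, 0.819 and 27.9 CPM in KOT livers at 34 weeks. The groups did not overlap at 12 weeks, whereas at 34 weeks KOT mouse 12 lay within the KO range and the other KOT mice below all WT mice. Ly6d was 51.5-fold higher in KO at 12 weeks (5.69, SE 1.27, adjusted p = 0.00201, edgeR) and 8.77-fold higher at 34 weeks (3.13, SE 1.08, adjusted p = 0.0246). The later call was lost without WT mouse 1, WT mouse 2 or KO mouse 6 (2.74, 3.01 and 2.25, adjusted p = 0.0853, 0.0717 and 0.112).

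In KOT livers Ly6d was 11.1-fold lower than in KO at 12 weeks (-3.47, SE 1.12, adjusted p = 0.0156, edgeR), a call lost without KOT mouse 12 of that time or KO mouse 9 (-3.30 and -2.69, adjusted p = 0.0516 and 0.0581). At 34 weeks the difference was -2.02 (SE 1.03, adjusted p = 0.129) and, without KOT mouse 12, -5.71 (adjusted p = 2.80e-04). Of 7 tested relatives in the Ly6 family, which share sequence and can share reads, 4 were higher in KO at 12 weeks and 3 at 34 weeks. Ly6c2, known from monocytes, measured 0.560 ± 0.214 CPM in WT and 24.9 ± 34.1 CPM in KO at 12 weeks, and Ly6e 196 ± 20.4 against 647 ± 82.6 CPM.

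Cd109, on chromosome 9 (78522735 to 78623558 of GRCm39, plus strand, 33 exons), was at or near 0 reads outside untreated Lipa-/- livers. It had 0 reads in each of the 3 WT and each of the 3 KOT livers at 12 weeks, and 50, 48 and 235 reads in KO livers (1.77, 1.86 and 9.50 CPM). At 34 weeks it had 2 reads in WT and 1 read in KOT livers in all, and 309, 120 and 273 reads in KO livers (9.74, 4.64 and 10.0 CPM). The KO livers lay above all WT and KOT livers, and those of 12 and 34 weeks overlapped each other. With 3 reads over a group as the floor, Cd109 was at least 82.8-fold higher in KO than in WT at 12 weeks (adjusted p = 1.33e-04, edgeR) and at least 58.9-fold lower in KOT than in KO. At 34 weeks the ratio of KO to WT was 282 (95% counting interval 77.7 to 2329, adjusted p = 5.03e-05) and that of KO to KOT 568 (102 to 22466). No fold is given between WT and KOT livers, which were all at or under the floor.

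Of 12 genes of transforming growth factor-beta signalling, 5 were higher in KO at 12 weeks and 7 at 34 weeks, with list medians of 0.99 and 1.51. The ligand gene Tgfb1 rose from 5.83 ± 0.456 to 59.2 ± 0.583 CPM at 12 weeks and from 8.26 ± 2.27 to 69.0 ± 10.0 CPM at 34 weeks, and measured 5.19 ± 1.50 and 9.77 ± 1.35 CPM in KOT. Tgfb2 (log2 fold change 3.30 and 3.69) and Tgfb3 (1.93 and 3.63) were called at both times. Tgfb2 passed the filter on low counts only through KO livers, so its calls are not separate support.

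Among 20 other genes known from liver tumours, 15 were higher and 1 lower in KO at each time, with list medians of 2.14 and 2.98. This list, like the others, was chosen with earlier results known, so its excess over all genes is not independent support. Spp1, the osteopontin gene, measured 30.0 ± 9.93 CPM in WT and 1062 ± 995 CPM in KO at 12 weeks, and 35.5 ± 4.62 against 1423 ± 422 CPM at 34 weeks. Midkine (Mdk) rose from 0.323 ± 0.103 to 5.40 ± 1.72 CPM and from 0.190 ± 0.158 to 10.4 ± 0.454 CPM, and Spink1 measured 9.48 ± 6.33 and 5.95 ± 3.75 CPM in KO against 0.0509 ± 0.0524 and 0.0522 ± 0.0452 CPM in WT. Mdk and Spink1 passed the filter on low counts only through KO livers, so their calls are not separate support. Tff3, a trefoil factor, measured 527 ± 349 CPM in KOT at 12 weeks against 8.03 ± 10.2 CPM in WT and 12.0 ± 5.80 CPM in KO, and was called higher in KOT than in both (6.03 and 5.45). Of the 3 binding partners of Cd24a on a further list, 1 was higher in KO at each time. Over the 124 tested genes of all 11 lists edgeR called 0 in KOT against WT at 34 weeks, with 9 at an unadjusted p under 0.05, and DESeq2 called 1. Of all 14533 genes, edgeR called 0.22% in that comparison, and 837 had an unadjusted p under 0.05. In that comparison the list counts are thus near the shares of all genes.

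**Figure D4:**
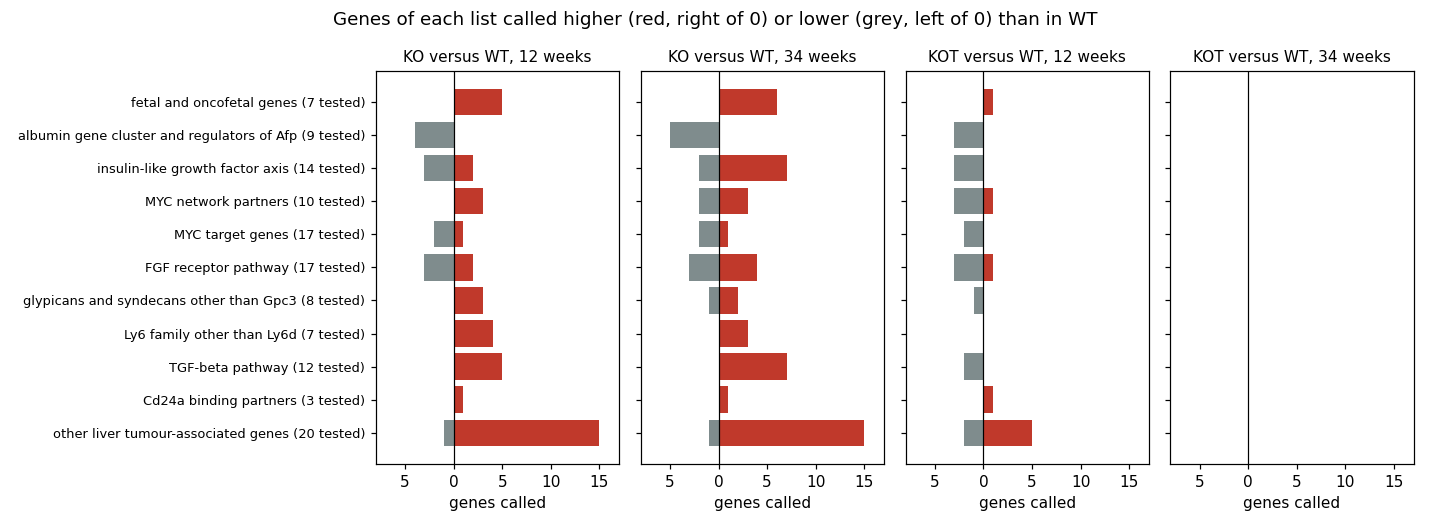
Number of genes called higher (red, right of 0) or lower (grey, left of 0) than in WT for each of the 11 lists, with the number tested in brackets, in KO and KOT mice at 12 and 34 weeks. In KO mice the list of other tumour-associated genes has 15 called higher at both times. The last panel is empty because edgeR called 0 genes of the lists in KOT at 34 weeks, when it called 0.22% of all genes.

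Per length, the members differed widely in KO livers at 34 weeks. Ly6d stood at 121 ± 85.9 TPM (the deposited length-scaled level) and Cd24a at 38.9 ± 19.8 TPM, followed by Fgfr1 (16.0 ± 5.93), Myc (16.0 ± 5.58) and Gpc3 (14.3 ± 8.37 TPM), then Afp (4.22 ± 1.70), Igf2 (2.03 to 4.68 in the 3 livers) and Cd109 (2.44 ± 1.09 TPM). The order of Fgfr1, Myc and Gpc3 among themselves is not resolved, since they lie closer than their SDs.

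Markers of several other cell types were higher in the same livers. Of 6 cholangiocyte markers 4 were called higher in KO at 12 weeks and 6 at 34 weeks, and their summed level ranged from 29.4 to 58.7 CPM in WT and 453 to 2234 CPM in KO at 12 weeks, and from 40.7 to 53.0 against 1019 to 1795 CPM at 34 weeks. Most of this sum was a single gene, Spp1, which is also on the list of other tumour genes. Spp1 alone ranged from 397 to 2206 CPM in KO at 12 weeks and from 945 to 1740 CPM at 34 weeks. Of 6 stellate cell and myofibroblast markers 4 and 5 were higher and 1, Lrat, was lower at each time (28.5 to 49.6 against 321 to 548 CPM, and 38.9 to 63.3 against 624 to 1456 CPM). Of 6 neutrophil markers 6 and 5 were higher (0.628 to 2.30 against 122 to 1593 CPM, and 1.01 to 5.37 against 104 to 272 CPM), with Ngp, Camp and Mpo at 0 in WT at 12 weeks and Camp at 0 in WT at 34 weeks. All 5 proliferation markers were higher at both times (2.82 to 3.72 against 16.8 to 108 CPM, and 4.90 to 10.7 against 21.0 to 77.6 CPM). Of 5 macrophage markers 4 were higher at each time and the Kupffer cell gene Clec4f was lower at 34 weeks (70.0 to 156 against 701 to 784 CPM, and 116 to 202 against 444 to 797 CPM). Of 6 hepatocyte markers, which were all detected in every group, 2 and 3 were lower. The part of these cells in the members' differences was not tested.

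Of the remaining lists, endothelial markers had 1 of 5 higher and 1 lower at each time, and T cell markers 2 and then 3 of 4 higher. B cell markers had 1 of 5 higher at 12 weeks and 1 lower at 34 weeks, and summed to between 1.62 and 12.9 CPM in all livers. Erythroid markers had 1 and then 2 of 5 lower. Ly6d is also known from B cells, whose markers summed to 1.62 to 3.70 CPM in WT, 2.87 to 4.00 CPM in KO and 5.54 to 12.9 CPM in KOT livers at 12 weeks. At 34 weeks they summed to 3.70 to 9.30 CPM in WT, 1.69 to 8.20 CPM in KO and 5.24 to 5.64 CPM in KOT livers, and the part of B cells in the Ly6d levels was not tested.

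The 2 livers that stood apart for Cd24a and were highest of their group for Ly6d also stood apart for several of these markers. KO mouse 9 at 12 weeks had summed levels of 2234 CPM for cholangiocyte (mostly Spp1), 1593 CPM for neutrophil and 108 CPM for proliferation markers, each the highest of its group, together with the highest Afp, Gpc3, Cd24a, Ly6d and Cd109. KOT mouse 12 at 34 weeks had 785 CPM of neutrophil markers, against 2.93 and 1.64 CPM in the other KOT mice of that time, and 26.6 CPM of proliferation markers against 4.88 and 2.90 CPM. It also had the lowest human LIPA level of the KOT livers and the highest Cd24a and Ly6d among them. KO mouse 6 at 34 weeks stood apart for Ly6d too (76.7 against 20.1 and 23.4 CPM). Its neutrophil markers, at 131 CPM, lay between those of the other KO mice of that time (104 and 272 CPM). Without KO mouse 9, 5 of the 8 members were called higher in KO at 12 weeks, with Afp lost.

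**Figure D5:**
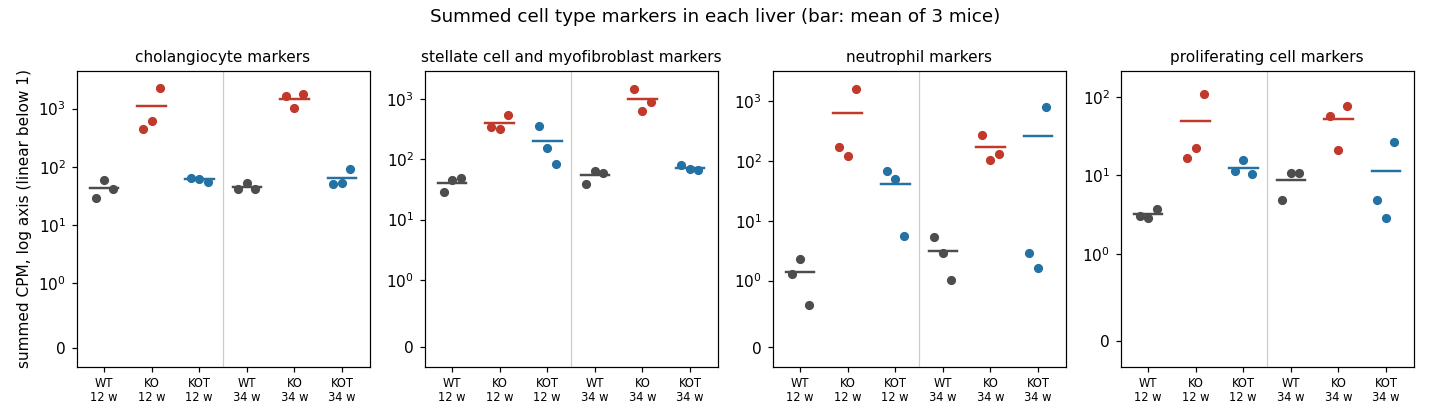
Summed CPM of 4 marker lists in each liver (points) with the group mean (short horizontal lines), on a logarithmic axis that is linear below 1 CPM; WT grey, KO red, KOT blue. KO livers are above WT livers in all 4 panels, and KOT mouse 12 at 34 weeks reaches 785 CPM for neutrophil markers. Most of the cholangiocyte sum is Spp1.

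Across the 18 livers the members varied together to different degrees. As a description over log2 CPM, in which the 6 groups supply most of the variation and all points share the scaling, Pearson's r was 0.93 for Cd24a with Cd109, 0.93 for Gpc3 with Cd24a and 0.92 for Gpc3 with Cd109. It was lowest for Afp with Fgfr1 (0.33) and 0.44 for Afp with Igf2. The genes with the most similar pattern, up to 3 per member among those with a mean of at least 1 CPM, were Lims1, Tuba1b and Il17rb for Afp (r from 0.92 to 0.94) and Lbh, Emilin1 and Col6a1 for Gpc3 (0.97 to 0.98). For Myc they were Fos, 1700017B05Rik and Fosb (0.86 to 0.88), of which Fos and Fosb are immediate early genes. For Fgfr1 they included Sort1 (0.95) and St3gal2 (0.94), for Cd24a Ckap4, Cdca8 and Pcolce (0.96 to 0.97), for Ly6d Ifi27l2b, Top2a and Nuf2 (0.95), and for Cd109 Mlana, Aoc1 and Spp1 (0.98).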

How the data were processed

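Polyadenylated liver RNA was sequenced from 18 mice, grouped by their labels (6 groups of 3). The estimated counts per gene were made by the authors with Salmon on Ensembl transcripts of GRCm39 and summed with tximport; the deposited counts are not scaled. The deposited TPM values and mean transcript lengths were produced by the authors alongside them. A table of the authors' own comparisons (log2 fold changes and p-values from DESeq2 1.40.1, in R 4.3.0 per the labels) was not used. ERCC spike-ins were added, and strand was not given in the sources used here.

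In R 4.3.3, the counts were rounded, and a gene was tested if its total over the livers exceeded 100. edgeR 4.0.16 fitted 6 group means with TMM factors, and p-values were adjusted with the Benjamini-Hochberg method over all 14533 genes in each of 11 comparisons: 6 within a time, 3 between times and 2 interactions. CPM values are scaled by TMM factors. Groups are small: an exact permutation test of 3 against 3 cannot go below 0.1. Alternatives were DESeq2 1.42.0 and edgeR with length offsets, other scalings and filters, limma 3.58.1 on log2(TPM + 0.1) and log2(TPM + 1), a fit of only the groups compared, other thresholds, the mouse number as a block and each mouse left out.

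Mouse numbers recur between times, but each animal gave 1 liver. The scripts were tested on simulated data. The members and lists were chosen with earlier results of these data known. Genes named are the members, Lipa, human LIPA, and, per list, the up to 4 genes of largest change called in KO against WT (mean CPM 1 or more), plus the 3 genes most correlated with a member. Gene positions are from GENCODE on GRCm39, and promoter sequences from RefSeq on GRCm38.p6, for 2 of the 3 members with an entry. Some genes that the naming rule selects are not reported here. Intervals and floors cover counting error only.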

Additional observations from a re-analysis of the deposited data

Results flagged for a closer look

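The difference from WT was called as changed between 12 and 34 weeks for Myc and Fgfr1, by a test of the change itself (the interaction in edgeR). For KO minus WT it was 3.29 on the log2 scale for Myc (adjusted p = 0.0495, edgeR) and 2.35 for Fgfr1 (0.036). For KOT minus WT it was 2.35 for Myc (0.0255) and 2.67 for Fgfr1 (0.0166). These calls depend on single mice and settings. With 1 of 12 mice left out in turn, the count of 2 was kept in 1 of 12 fits for KO and in 8 of 12 for KOT. Within WT mice the change from 12 to 34 weeks was -2.61 for Myc (adjusted p = 0.0151, edgeR) and -1.16 for Fgfr1 (adjusted p = 0.122). Time and study code cannot be told apart in these values.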

How the results depend on the processing

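The counts of members called in KO against WT and in KOT against KO stayed within 1.5 times under 11 settings each, and over 6 mice left out in turn they were 5 to 6 and 7 to 8 (KO against WT, 12 and 34 weeks) and 5 to 6 and 6 to 8 (KOT against KO). No called difference of a member within a time changed sign under the alternatives run. Signs were not followed for the comparisons over time and the interactions. Scaling to total counts moved the median of all genes by 0.47 and 0.63 in KO against WT (12 and 34 weeks), by -0.40 and 0.09 in KOT against WT and by -0.87 and -0.54 in KOT against KO. For the values below the cause was not tested. Low reads limit Igf2 and Cd109 outside KO livers, and groups of 3 limit all tests.

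Counts that moved were as follows. For KOT against WT, log2(TPM + 1) and an adjusted p under 0.01 gave 1 at 12 weeks, the fit of only the groups compared and the stricter p gave 0 at 34 weeks, and mice left out gave 1 to 2 and 0 to 1. For WT over time (1), DESeq2 gave 2, and only the groups compared and the stricter p gave 0. For KO over time (1), DESeq2 and upper-quartile factors gave 2, log2(TPM + 1) gave 3, and length offsets, only the groups compared and the stricter p gave 0. Mice left out gave 0 to 1 for both. For KOT over time (2), log2(TPM + 1) gave 1. For the interaction of KO (2), length offsets and log2(TPM + 0.1) gave 1, total counts and the stricter p gave 0, and mice left out 0 to 2. For that of KOT (2), the stricter p gave 0 and mice left out 0 to 3.

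Deviations of same-numbered mice correlated between -0.253 and 0.460, a range without a reference that cannot decide on pairing. Each animal gave 1 liver, so the numbers were not used to pair mice in the main fit. With the mouse number as a replicate block, 0 members were called in WT and 1 in KOT over time. KO mice share 1 number, so that paired fit was not run.

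Uncalled differences changed sign as follows. For Myc in KO against WT at 12 weeks it was -0.00323 with DESeq2, -0.00934 with length offsets and -0.20 to 0.52 with mice left out. For Igf2 in KOT against WT it was -0.57 and -0.86 (12 and 34 weeks) with DESeq2, -0.58 and -0.76 with length offsets, -0.36 (12 weeks) with total counts, -0.50 and -0.50 on log2(TPM + 0.1), -0.11 and -0.12 on log2(TPM + 1), and -0.95 to 0.78 and -0.13 to 0.71 with mice left out. For Gpc3 at 12 weeks it was -0.12 with total counts, -0.22 and -0.050 on the TPM scales (0.1 and 1 added) and -0.12 to 0.56 with mice left out. For Cd24a it was -0.32, -0.49 and -0.23 in that order, -0.016 with only the groups compared and -0.24 to 0.47 with mice left out. At 34 weeks it was -0.34 and -0.16 on the TPM scales for Ly6d, and mice left out gave -2.55 to 1.87 for Ly6d, -0.31 to 0.23 for Afp and -0.42 to 1.30 for Cd24a. For KOT against KO at 12 weeks, Afp was -0.76 with total counts, -0.74 and -0.56 on the TPM scales and -0.21 to 0.90 with mice left out, and Igf2 was -1.37 to 0.039 with mice left out.

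Some calls of single genes also depended on the setting. Afp in KOT against WT at 12 weeks was 0.78 on log2(TPM + 0.1) (adjusted p = 0.166, limma), and in KOT against KO at 34 weeks it was -1.03 with DESeq2 (adjusted p = 0.0528). Fgfr1 in KOT against WT at 12 weeks passed the threshold with DESeq2 (-1.19), length offsets (-1.23), total counts (-1.25) and log2(TPM + 0.1) (-1.62). Ly6d was called in KOT against KO at 34 weeks on both TPM scales (-4.21 and -3.81) and in KOT against WT at 12 weeks with only the groups compared (2.16). Cd109 fell short of the fold threshold on log2(TPM + 1) at 12 weeks (0.86 and -0.86).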
